A study of Mus musculus with 16 samples.

Results

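The 10 transcription factors that lead early thymocytes into the T-cell lineage, followed here through every group of the series, were Tcf7, Lef1, Gata3, Bcl11b, Runx1, Runx3, Ets1, Ets2, Myb and Gfi1. They were taken by gene symbol from 2 tables of read counts, and all 10 of the 10 symbols were found among the 22114 genes that each table lists. The cells were DN3 thymocytes, the CD4- CD8- CD44- CD25+ stage at which the T-cell receptor beta gene is rearranged, sorted from C57BL/6 mice. In the first table, GFPhi and GFPlo DN3 cells (3 libraries each) came from H2B-GFP;Lmo2Tg mice, which carry a histone-GFP fusion switched on by doxycycline and the CD2-Lmo2 transgene, in which CD2 regulatory sequences express the oncogene Lmo2 in T-lineage cells. The cells were sorted 2 weeks after the doxycycline pulse, so that cells which had divided little kept the label (GFPhi) and cells which had divided more had diluted it (GFPlo), and both groups carry the transgene. The second table holds total DN3 cells of wild-type mice (WT, 3 libraries), mice lacking the cell-cycle inhibitor p21, encoded by Cdkn1a (p21-/-, 2 libraries), transgenic mice (Lmo2Tg, 2 libraries) and transgenic mice lacking p21 (Lmo2Tg;p21-/-, 2 libraries). The age of the mice is given as 6 weeks in the methods text and as 2 months in a legend on the GFP experiment. RNA was prepared from pools of 3 to 5 mice, so that the spread between libraries is a spread between pools.

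The factors act as a network. Notch signals in the thymus switch on Tcf7 (the protein TCF-1) and Gata3, TCF-1 opens chromatin at T-cell genes and helps to switch on Bcl11b, and Bcl11b closes the progenitor program and with it the access to other blood lineages. Runx1, Ets1 and Myb are shared with blood progenitors and bind T-cell enhancers together with these factors, Lef1 is the close relative of Tcf7, Runx3 is best known for silencing Cd4 in CD8 cells, and Gfi1 is a repressor that restrains alternative fates and proliferation.

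All 10 factors had counts in each of the 15 libraries, and the lowest was 610 reads (Ets2). The libraries of the GFP experiment held 26861394 to 31106213 counts and those of the genotypes 13864936 to 16837667, so that 3 counts, taken as the floor of detection, corresponded to 0.0966 to 0.222 CPM, a count scaled to a common library size with TMM factors. Lmo2 stood at 0.0636 to 0.306 CPM in the 5 libraries without the transgene and at 41.4 to 107 CPM in the 4 with it. Cdkn1a stood at 14.3 and 17.7 CPM in the p21-/- libraries, below the 36.5 to 49.0 CPM of WT, and at 4.35 and 3.50 CPM in Lmo2Tg;p21-/-. GFPhi replicate 3 stood apart from the other GFPhi libraries: its Lmo2 was 285 CPM (53.8 and 29.5 CPM in replicates 1 and 2) and its Cdkn1a 6.56 CPM (35.8 and 29.9 CPM), and results on GFPhi are therefore given with and without it. The 10 DN3 markers, among them Il2ra, Ptcra and Rag1, had counts in every library. The tables were normalized apart from each other, so no test was made between them.

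Expression was first compared between the factors themselves, as CPM divided by the summed exon length of each gene in kilobases (GENCODE M21). In WT DN3 cells Tcf7 was the highest of the 10, at 1011 ± 33.7 CPM per kb (SD, n = 3), above 99.9% of the 14741 genes with counts. Ets1 (103 ± 3.88), Myb (98.6 ± 4.71) and Bcl11b (96.0 ± 2.75 CPM per kb) followed as a group, in which each overlapped the next. Below them came Gfi1 (40.0 ± 1.91), Runx1 (33.3 ± 1.76), Gata3 (27.9 ± 0.484) and Lef1 (21.4 ± 3.19 CPM per kb), each apart from the next in all 3 libraries. Runx3 (14.8 ± 0.532 CPM per kb) and Ets2 (14.6 ± 2.22 CPM per kb) were lowest and overlapped each other. The order was led by Tcf7 in all 6 groups, and Ets2 was last in 5 of them, the exception being p21-/-, where Runx3 was last and overlapped Ets2 (16.3 ± 0.816 CPM per kb). Both held in GFPhi also without replicate 3 (1264 CPM per kb for Tcf7, 13.8 CPM per kb for Ets2). In both transgenic genotypes Myb stood apart above Ets1, and Ets1 apart above Bcl11b. Runx3 moved from rank 9 in WT to rank 7 in Lmo2Tg (33.6 ± 5.90 CPM per kb, n = 2), where it overlapped Runx1 (35.5 ± 3.02 CPM per kb).

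**Figure D1:**
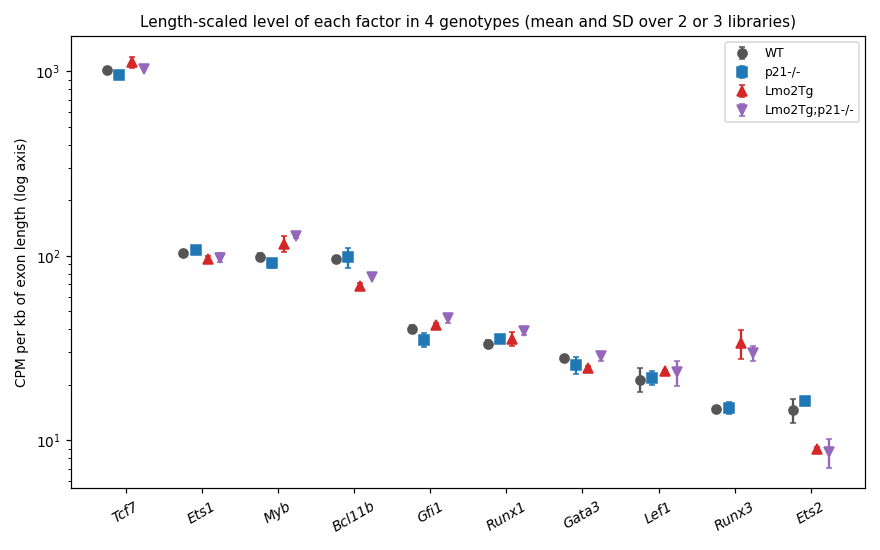
Length-scaled level (CPM per kb of exon, log axis) of the 10 factors in the 4 genotypes, ordered by their WT mean; symbols are means and bars SD over 3 (WT) or 2 libraries. Tcf7 lies highest in every genotype (1011 CPM per kb in WT), and Runx3 and Ets2, at about the same level in WT, part in opposite directions in the transgenic genotypes.

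To ask how the transgene altered the commitment factors, Lmo2Tg was compared with WT, and Lmo2Tg;p21-/- with p21-/-, which shares no library with the first comparison and only its estimate of the spread. In the first comparison 3 of the 10 factors passed an adjusted p of 0.05 (edgeR, quasi-likelihood F test, Benjamini-Hochberg over all genes), where 36.6% of the 11840 genes tested did, 19.7% upwards and 16.9% downwards. In the second 5 of the 10 passed, where 30.7% of all genes did, 16.3% upwards and 14.4% downwards. Runx3 rose and Ets2 and Bcl11b fell in both, and Myb and Gfi1 rose in the second. The libraries of the groups did not overlap for 7 of the 10 in the first comparison (60.9% of all genes) and for 9 in the second (70.9%). With 10 factors these shares lie near those of all genes or, for the second comparison, somewhat above, and no test was made of the group as such. In whole-population RNA, fewer cells that express a gene and less of its RNA per cell cannot be told apart.

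Runx3 (ENSMUSG00000070691, chr4:135120652-135177990 of GRCm38, plus strand) showed the largest change of the 10. Its level was 76.9, 72.3 and 72.2 CPM in WT, 70.9 and 79.1 CPM in p21-/-, 189 and 147 CPM in Lmo2Tg and 158 and 139 CPM in Lmo2Tg;p21-/-. Each of the 4 transgenic libraries was above each of the 5 libraries without the transgene. The log2 difference was 1.19 (95% interval 0.95 to 1.42, 2.28-fold, adjusted p = 1.7e-05) for Lmo2Tg against WT and 0.99 (0.72 to 1.25, 1.98-fold, adjusted p = 0.000144) for Lmo2Tg;p21-/- against p21-/-. Runx3 has a distal and a proximal promoter, and the count per gene sums the transcripts of both. The stretches upstream of the 2 annotated starts that lie outside annotated exons are shown because Runx3 transcripts are annotated to begin just after them. They are from RefSeq (GRCm38.p6, chr4:135120448-135120644 and chr4:135152295-135152495, plus strand, 5′ to 3′), and capitals mark the core RUNX letters ACCACA, the reverse complement of TGTGGT.

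Runx3 distal: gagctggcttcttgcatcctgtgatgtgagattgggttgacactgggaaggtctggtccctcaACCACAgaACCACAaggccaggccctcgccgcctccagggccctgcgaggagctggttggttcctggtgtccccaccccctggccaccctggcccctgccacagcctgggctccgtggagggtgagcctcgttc
Runx3 proximal: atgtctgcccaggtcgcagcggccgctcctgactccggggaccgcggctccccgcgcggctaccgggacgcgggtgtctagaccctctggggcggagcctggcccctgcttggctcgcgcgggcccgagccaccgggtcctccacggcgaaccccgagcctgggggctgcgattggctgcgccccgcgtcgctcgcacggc

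The distal stretch holds the RUNX letters 2 times, and the proximal one does not hold them. On either strand these letters occur in 14% of all 32851 RefSeq promoter windows of 250 bases, so that a match only describes the sequence. Among the 16 windows listed for 9 of the 10 factors (not Ets1), 1 held TGTGGT, 3 the ETS letters CCGGAA (12% of all windows), 2 the TCF/LEF letters CTTTGA (13.8%), 0 the GATA letters AGATAA (9.99%) and 9 an E-box, CANNTG (66.2%), the class of element bound by the basic helix-loop-helix proteins that LMO2 bridges to GATA factors.

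Its relative Runx1 (ENSMUSG00000022952, chr16:92601466-92826149, minus strand) encodes the RUNX factor of blood stem cells, which continues into thymocytes. Runx1 read 415, 410 and 376 CPM in WT and 453 and 402 CPM in Lmo2Tg, which overlap. The log2 difference was 0.09 (95% interval -0.09 to 0.28, adjusted p = 0.401), and 0.14 (-0.06 to 0.34, adjusted p = 0.247) for Lmo2Tg;p21-/- (487 and 453 CPM) against p21-/- (418 and 433 CPM). Neither difference passed the test, and both intervals lie below the interval of Runx3. The shared DNA-binding partner of the family, Cbfb, was at -0.008 (adjusted p = 0.947) in Lmo2Tg against WT.

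Bcl11b (ENSMUSG00000048251, chr12:107910403-108003602, minus strand), the zinc-finger repressor that closes commitment, fell with the transgene. It read 780, 755 and 800 CPM in WT and 571 and 539 CPM in Lmo2Tg, with no overlap. The log2 difference was -0.49 (95% interval -0.68 to -0.30, 1.40-fold lower, adjusted p = 0.00145). Without p21 the levels were 863 and 726 CPM in p21-/- and 628 and 623 CPM in Lmo2Tg;p21-/-, again without overlap. The difference there was -0.35 (-0.55 to -0.14, 1.27-fold lower, adjusted p = 0.0173), and it missed the threshold when any of 3 libraries was left out: adjusted p = 0.153 without p21-/- replicate 1, 0.0764 without Lmo2Tg;p21-/- replicate 1 and 0.0633 without replicate 2, in a range of 0.00217 to 0.153 over its 16 alternatives. Bcl11b still stood above 95.8% of the genes with counts in Lmo2Tg on the CPM per kb scale. The bases just upstream of the gene are shown because Bcl11b fell (RefSeq, GRCm38.p6, chr12:108003603-108003664, minus strand, 5′ to 3′), and none of the letters searched occur in them. The full window of 250 bases, which runs into an annotated exon, holds 1 match to the TCF/LEF letters.

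Bcl11b: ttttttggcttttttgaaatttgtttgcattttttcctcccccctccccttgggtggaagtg

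Ets2 and Ets1 encode ETS-domain activators, of which Ets1 is the main one in T cells. Ets2 (ENSMUSG00000022895, chr16:95702075-95721051, plus strand) read 76.2, 77.5 and 99.1 CPM in WT, 97.4 and 90.8 CPM in p21-/-, 52.7 and 51.6 CPM in Lmo2Tg and 43.5 and 55.9 CPM in Lmo2Tg;p21-/-. All 4 transgenic libraries were below all 5 others. The log2 difference was -0.69 (95% interval -0.99 to -0.40, 1.62-fold lower, adjusted p = 0.0024) with p21 and -0.92 (-1.24 to -0.60, 1.89-fold lower, adjusted p = 0.000795) without it. Ets1 (ENSMUSG00000032035, chr9:32636221-32757820, plus strand) read 870, 908 and 842 CPM in WT and 834 and 793 CPM in Lmo2Tg, close to each other but without overlap. Its log2 difference was -0.10 (-0.27 to 0.06, adjusted p = 0.314), and -0.13 (-0.32 to 0.05, adjusted p = 0.246) in the comparison without p21, so no change of Ets1 was called.

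Myb (ENSMUSG00000019982, chr10:21124935-21160984, minus strand), which keeps progenitors in cycle and supports the double-negative stages, read 916, 893 and 834 CPM in WT and 1108 and 964 CPM in Lmo2Tg. The groups did not overlap, and the log2 difference of 0.23 (95% interval 0.04 to 0.42) had an adjusted p of 0.0541. In 4 of 15 alternatives it passed, and the adjusted p ranged from 0.0243 to 0.399. Without p21 it rose, from 846 and 779 CPM to 1176 and 1122 CPM, by 0.50 on the log2 scale (0.29 to 0.71, 1.42-fold, adjusted p = 0.00259), and this held in all 16 alternatives. Gfi1 (ENSMUSG00000029275, chr5:107716657-107726036, minus strand) read 122, 127 and 134 CPM in WT and 133 and 137 CPM in Lmo2Tg, which overlap (0.08, -0.10 to 0.26, adjusted p = 0.476). It rose from 119 and 105 CPM in p21-/- to 152 and 140 CPM in Lmo2Tg;p21-/-, by 0.38 (0.19 to 0.58, 1.30-fold, adjusted p = 0.00844). This call was lost without p21-/- replicate 2 (0.29, adjusted p = 0.0929) and without Lmo2Tg;p21-/- replicate 1 (0.31, adjusted p = 0.0915), in a range of 0.00202 to 0.0929 over 16 alternatives.

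**Figure D2:**
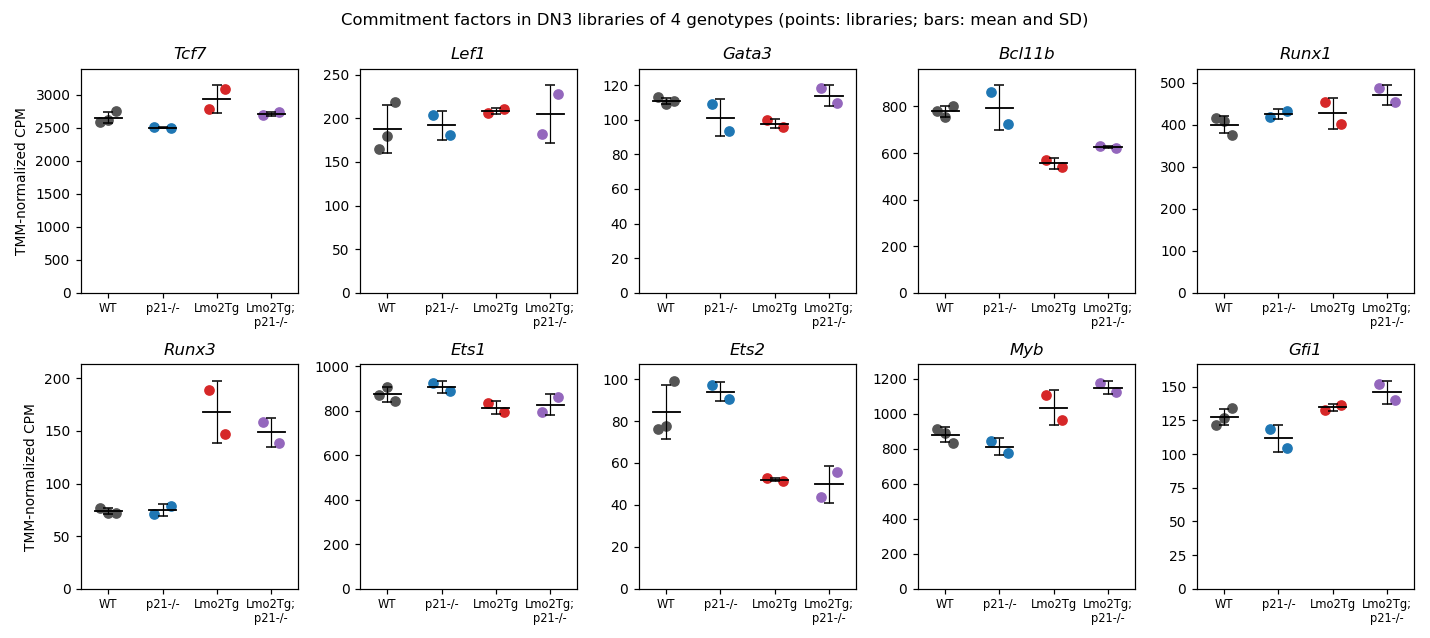
TMM-normalized CPM of each factor in every genotype library (points), with the mean and SD of each group; each panel has its own axis from 0. The Runx3 points of both transgenic genotypes lie above 138 CPM and those of the other genotypes below 80 CPM, and the Ets2 points part the opposite way.

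For the factors that start the program, and for Lef1, no change was called. Tcf7 (ENSMUSG00000000782, chr11:52252371-52283014, minus strand) read 2586, 2620 and 2753 CPM in WT and 2790 and 3083 CPM in Lmo2Tg, a log2 difference of 0.15 (95% interval -0.03 to 0.32, adjusted p = 0.167). In Lmo2Tg;p21-/- (2691 and 2730 CPM) against p21-/- (2506 and 2494 CPM) it was 0.12 (-0.07 to 0.31, adjusted p = 0.327). Gata3 (ENSMUSG00000015619, chr2:9857078-9890034, minus strand), needed for the first T-lineage steps and later for CD4 cells, read 113, 109 and 111 CPM in WT and 99.6 and 95.9 CPM in Lmo2Tg. These groups did not overlap, and the log2 difference of -0.18 (-0.36 to -0.002) had an adjusted p of 0.103. Without p21 the difference was on the other side of 0, at 0.17 (-0.03 to 0.36, adjusted p = 0.175). Lef1 (ENSMUSG00000027985, chr3:131110471-131224356, plus strand) overlapped between the groups in both comparisons, from 165 to 219 CPM in WT and 206 to 211 CPM in Lmo2Tg (0.15, -0.13 to 0.44, adjusted p = 0.379), and with 0.10 (-0.21 to 0.41, adjusted p = 0.64) without p21. Antisense genes share 13.7% of the exon bases of Lef1, 6.26% of Myb, 3.9% of Gata3 and 0.881% of Runx1, a processed transcript on the other strand shares 3.17% of Gfi1, and a gene on the same strand shares 1.94% of Gata3, so these counts may hold reads of a neighbour, those on the other strand where strand was not used in counting.

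**Figure D3:**
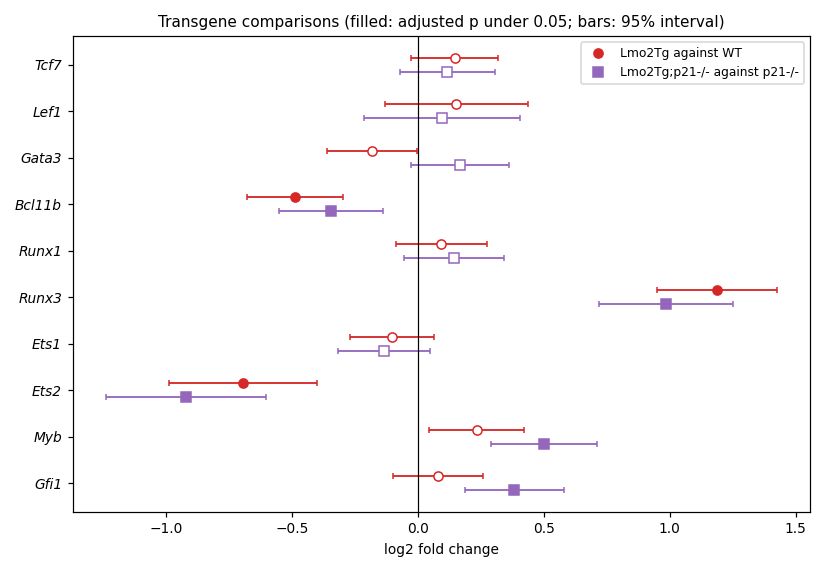
Log2 fold change of each factor for Lmo2Tg against WT (circles) and Lmo2Tg;p21-/- against p21-/- (squares), with 95% intervals; filled symbols passed an adjusted p of 0.05. Runx3 lies near 1 in both, Ets2 and Bcl11b lie below 0 in both, and Myb and Gfi1 are filled in the second comparison.

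To ask what p21 contributed, the groups with and without it were compared. In p21-/- against WT 0 of the 10 factors passed the edgeR test, where 0.11% of all genes did (0.0507% upwards, 0.0591% downwards), with 0 also in DESeq2 and in limma-voom. At an unadjusted p under 0.05, which 3.3% of all genes passed, there was 1, Gfi1, at -0.19 (95% interval -0.37 to -0.01), from 122 to 134 CPM in WT to 119 and 105 CPM. Tcf7, Gata3, Runx1 and Gfi1, 4 of the 10, did not overlap between the groups, beside 19.5% of all genes. The other differences lay between -0.13 (Gata3, adjusted p = 0.984) and 0.16 (Ets2, adjusted p = 0.984). In Lmo2Tg;p21-/- against Lmo2Tg 0 of the 10 again passed, where 6.94% of all genes did (3.35% upwards, 3.59% downwards), and DESeq2 and limma-voom also called 0. The count at an unadjusted p under 0.05 (25.5% of all genes) was 1, Gata3, which read 118 and 110 CPM against 99.6 and 95.9 CPM (0.22, 0.02 to 0.42, adjusted p = 0.157). The log2 differences ranged from -0.18 (Runx3, 95% interval -0.44 to 0.08) to the 0.22 of Gata3, and 6 of the 10 did not overlap between the groups, beside 54.8% of all genes.

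Whether the transgene acted alike with and without p21 was tested as the interaction, the difference between its effect without p21 and its effect with p21. It passed for 0 of the 10 factors in edgeR, where it did for 1.38% of all genes (0.279% upwards, 1.1% downwards), and for 0 in DESeq2 and in limma-voom. At an unadjusted p under 0.05, which 18.1% of all genes passed, there were 2, Gata3 at 0.35 (95% interval 0.08 to 0.62, adjusted p = 0.167) and Gfi1 at 0.30 (0.04 to 0.57, adjusted p = 0.22). For Myb and Gfi1, which were called without p21 and not with it, the effects were therefore not shown to differ (Myb 0.27, -0.02 to 0.55, adjusted p = 0.301). Nor was a difference shown for Runx3 (-0.20, -0.56 to 0.16, adjusted p = 0.543), Ets2 (-0.23, -0.65 to 0.20, adjusted p = 0.575) or Bcl11b (0.14, -0.14 to 0.42, adjusted p = 0.584).

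To ask whether the label-retaining cells differed in their commitment factors, GFPhi was compared with GFPlo. With all 6 libraries 1 of the 10 factors passed, where 14.9% of the 11581 genes tested did (5.37% upwards, 9.49% downwards). Without GFPhi replicate 3 the count was 2, where 41.3% of the 11745 genes tested did (19.5% upwards, 21.7% downwards), so that in both cases the share among the factors was below that of all genes. The libraries did not overlap for 2 of the 10 with all 6 libraries (41.3% of all genes) and for 5 without that one (65.6%). Ets2 was 58.9, 62.7 and 66.6 CPM in GFPlo and 76.9, 82.7 and 83.1 CPM in GFPhi, with no overlap. It rose by 0.37 on the log2 scale (95% interval 0.20 to 0.53, 1.29-fold, adjusted p = 0.0227), and by 0.35 (0.18 to 0.52, adjusted p = 0.00835) without GFPhi replicate 3. Leaving out any other single library ended the call, with adjusted p from 0.0534 to 0.116, while the value stayed between 0.32 and 0.41 (adjusted p 0.000207 to 0.116 over its 14 alternatives). With the replicate number as a block it was 0.37 and the call was also lost (adjusted p = 0.0639). The 10 DN3 markers summed to 5756 to 6029 CPM in GFPlo and 6441 to 7750 CPM in GFPhi (6441 and 6599 CPM without replicate 3), and their part in the level of Ets2 was not tested.

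Lef1 was the factor in which the GFPhi libraries differed most. It read 208, 155 and 149 CPM in GFPlo, 460 and 461 CPM in GFPhi replicates 1 and 2, and 84.6 CPM in GFPhi replicate 3. Thus 2 GFPhi libraries were above and 1 was below every GFPlo library. Over all 6 the log2 difference was 0.97 with a 95% interval from -0.48 to 2.43 (adjusted p = 0.304), and without replicate 3 it was 1.44 (1.11 to 1.77, 2.71-fold, adjusted p = 0.000505). The direction was the same in all 14 alternatives, and the call was made in 1 of them. Lef1 has several annotated starts, and the window upstream of an internal one is shown because it holds letters of the family to which Lef1 itself belongs (RefSeq, GRCm38.p6, chr3:131156044-131156293, plus strand, 5′ to 3′). The windows of the other Lef1 starts hold 0 matches to these letters. The bases just after the internal start were not found in a GENCODE M21 transcript of Lef1, and binding to the window was not tested. Capitals mark 2 matches to the TCF/LEF letters as TCAAAG, the reverse complement of CTTTGA, and 1 E-box, CACGTG.

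Lef1 internal start: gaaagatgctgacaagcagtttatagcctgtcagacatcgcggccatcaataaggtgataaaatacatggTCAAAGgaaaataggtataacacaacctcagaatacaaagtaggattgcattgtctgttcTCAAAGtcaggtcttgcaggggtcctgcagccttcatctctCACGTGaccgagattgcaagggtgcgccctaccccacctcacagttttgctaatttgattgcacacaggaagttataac

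**Figure D4:**
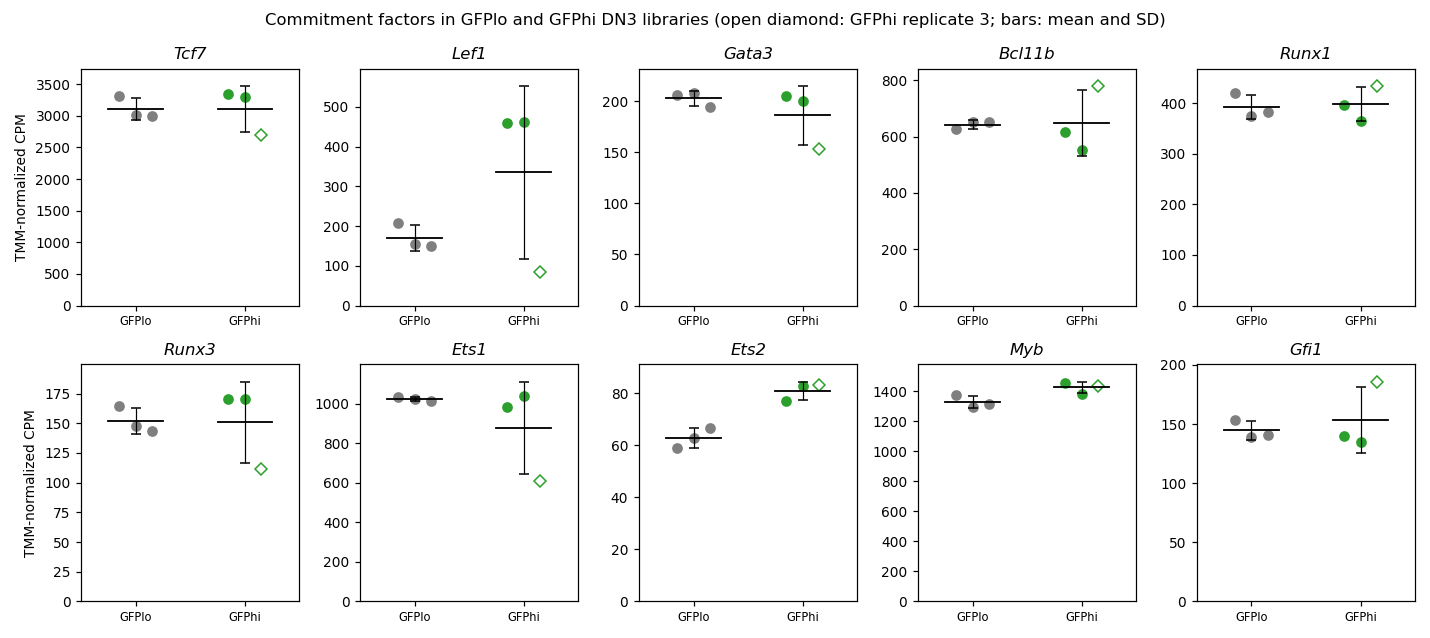
TMM-normalized CPM of each factor in the GFPlo and GFPhi libraries (points), with the mean and SD of each group, each panel on its own axis from 0; the open diamond is GFPhi replicate 3. For Lef1 the diamond (84.6 CPM) lies below and the other GFPhi libraries (460 and 461 CPM) lie above the GFPlo range of 149 to 208 CPM.

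GFPhi replicate 3 was the outermost GFPhi library for several other factors. Ets1 read 610 CPM in it against 982 to 1038 CPM in the 5 other libraries, and Gata3 153 CPM against 195 to 208 CPM. Runx3 was 112 CPM there, against 170 CPM in both other GFPhi libraries and 144 to 165 CPM in GFPlo. Bcl11b (780 CPM) and Gfi1 (186 CPM) were higher in it than in the 5 other libraries, which spanned 551 to 652 CPM and 135 to 154 CPM. With all 6 libraries the log2 differences were -0.22 for Ets1 (adjusted p = 0.467), -0.01 for Runx3 (0.972), 0.01 for Bcl11b (0.953) and 0.09 for Gfi1 (0.685). Without it those of Bcl11b (-0.13, 95% interval -0.28 to 0.02, adjusted p = 0.14) and Gfi1 (-0.07, -0.21 to 0.08, adjusted p = 0.396) were on the other side of 0. Without it the differences of Gata3 (0.00, 95% interval -0.12 to 0.13, adjusted p = 0.963) and Ets1 (-0.01, -0.14 to 0.11, adjusted p = 0.86) were close to 0, and that of Runx3 was 0.17 (0.01 to 0.33, adjusted p = 0.0826). Tcf7 was at 2994 to 3311 CPM in GFPlo and 2692 to 3338 CPM in GFPhi (0.00, -0.26 to 0.26, adjusted p = 0.996), and Myb at 1294 to 1374 CPM and 1386 to 1456 CPM (0.10, -0.04 to 0.25, adjusted p = 0.275). Runx1 overlapped between the groups as well (0.02, -0.19 to 0.23, adjusted p = 0.887). Without GFPhi replicate 3 the values of these were 0.10 (adjusted p = 0.275) for Tcf7, 0.10 (0.19) for Myb and -0.04 (0.674) for Runx1. Gata3 lies on chromosome 2, whose 923 tested genes had a median log2 difference of -0.18, with 77.6% lower in GFPhi (-0.19 and 76.3% without GFPhi replicate 3), and its own difference over all 6 libraries was -0.13 (-0.42 to 0.16, adjusted p = 0.499). The part of chromosome 2 in the level of Gata3 was not tested.

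**Figure D5:**
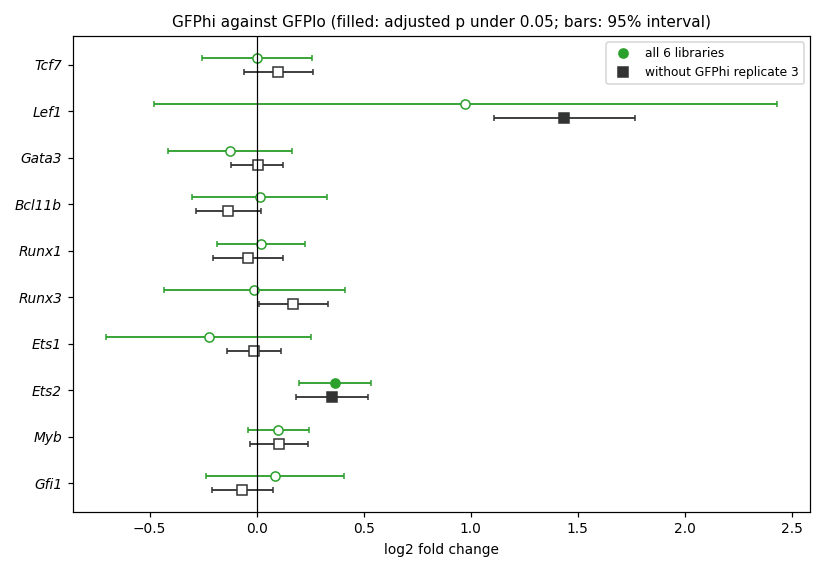
Log2 fold change of each factor for GFPhi against GFPlo with all 6 libraries (circles) and without GFPhi replicate 3 (squares), with 95% intervals; filled symbols passed an adjusted p of 0.05. Ets2 is filled in both, and Lef1 (0.97 and 1.44) is filled, with a narrower interval, without that library.

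Side by side, the levels in the 2 tables were unlike for Gata3, at 93.7 to 118 CPM over the genotypes and 153 to 208 CPM over the GFP libraries, and for Myb, at 779 to 1176 CPM and 1294 to 1456 CPM. Runx3 read 112 to 170 CPM in the GFP libraries, all of which carry the transgene, and 139 to 189 CPM in the transgenic genotypes. Because each table was normalized separately, and their names point to different strand settings, these are descriptions.

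The genes around the factors were then counted by lists, to be read beside the 36.6% of all genes called in Lmo2Tg against WT and the 30.7% in Lmo2Tg;p21-/- against p21-/-. The shares called were 60% and 66.7% of the relatives, 46.7% and 40% of the partners and co-repressors, 64.7% and 47.1% of the other T-cell factors, 75% and 80% of the T-identity targets and 85.7% and 92.9% of the progenitor factors. The lists share genes, so their counts are not independent. Erg, Bcl11a, Gata2 and Spi1 are both relatives and progenitor factors. Il2ra, Ptcra and Rag2, among others, are both targets and DN3 markers. Among the 15 family relatives, such as Erg and Spi1, 7 rose and 2 fell in Lmo2Tg against WT, and 8 rose and 2 fell in Lmo2Tg;p21-/- against p21-/-. Their median log2 differences were 0.44 and 0.61, beside -0.013 and -0.004 over all genes tested. Erg, an ETS factor of stem cells, rose from 49.6 ± 4.90 CPM (n = 3) to 126 ± 8.55 CPM (n = 2), by 1.35 (adjusted p = 6.13e-06), while Bcl11a, the relative of Bcl11b in progenitors and B cells, fell from 17.7 ± 0.598 to 7.53 ± 0.186 CPM, a difference of -1.23 (adjusted p = 4.4e-05). Spi1, which encodes the myeloid factor PU.1, rose from 2.90 ± 0.808 to 11.9 ± 1.30 CPM, by 2.05 (adjusted p = 6.63e-05). Gata2, a stem-cell GATA factor, was called too (adjusted p = 0.0197), from 0.0605 to 0.123 CPM in WT, under the floor, to 0.547 and 1.11 CPM. Among 15 partners and co-repressors 6 rose and 1 fell (5 and 1 without p21), with medians of 0.05 and 0.06. They include the Groucho co-repressors of TCF/LEF and RUNX factors: Tle1 rose by 0.95 (adjusted p = 0.00109) and Tle4 by 0.70 (adjusted p = 9.18e-05), and Tle2 rose from 0.474 ± 0.045 to 5.19 ± 1.24 CPM (adjusted p = 1.42e-05). Tle3, the most abundant Tle gene of the list, did not rise. It read 470 ± 11.7 CPM in WT and 428 ± 24.5 CPM in Lmo2Tg, and 450 ± 27.4 CPM in p21-/- and 397 ± 1.14 CPM in Lmo2Tg;p21-/-.

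Genes that the factors are known to switch on, the 20 T-identity targets, went both ways: 5 rose and 10 fell in Lmo2Tg against WT (median -0.26), and 6 rose and 10 fell without p21 (median -0.41). Rag2, a subunit of the recombinase, fell from 72.3 ± 11.6 CPM to 14.4 CPM in both libraries, a difference of -2.33 (adjusted p = 1.05e-05), and Ptcra, the partner chain of the pre-T-cell receptor, from 134 to 186 CPM in WT to 26.0 and 55.7 CPM, a difference of -1.90 (adjusted p = 0.000616). Cd2 and Cd6, surface receptors of T cells, rose by 4.05 (adjusted p = 1.31e-07) and 1.75 (adjusted p = 5.56e-07). The transgene itself carries CD2 sequences, and whether reads from it were counted for Cd2 was not tested. Of the progenitor factors 14 of 16 were tested, Flt3 and Meis1 being too low, and 8 rose and 4 fell (8 and 5 without p21). Hhex, a homeobox gene of progenitors, rose from 3.22 ± 0.748 to 78.3 ± 11.8 CPM, by 4.60 (adjusted p = 5.1e-08), and Lyl1, a partner of LMO2, from 3.75 ± 0.188 to 51.4 ± 21.5 CPM, by 3.77 (adjusted p = 1.71e-06). Among those that fell were Hoxa9 (-1.79, adjusted p = 0.0117) and Irf8 (-1.35, adjusted p = 0.000137). The paper counts Lyl1 and Hhex among the downstream targets of Lmo2. The part of Bcl11b in the levels of the progenitor factors was not tested. The progenitor median was 0.83, and 1.24 without p21. Of 18 other T-cell factors 17 were tested, with Zbtb7b too low, and 8 rose and 3 fell (5 and 3 without p21), Sox13 rising by 1.12 (adjusted p = 0.000222) and Notch3 falling (-1.13, adjusted p = 2.21e-05).

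Between GFPhi and GFPlo 5% to 13.3% of each of these lists was called, beside 14.9% of all genes. Of the relatives 1 rose (Runx2, 0.37, adjusted p = 0.0453) and 1 fell (Tcf7l1, a repressing relative of Tcf7, from 3.61 ± 0.106 to 0.671 ± 0.0719 CPM, -2.42, adjusted p = 0.00207). Of the partners 2 fell, Tle2 (-1.30, adjusted p = 0.0136) and Ep300 (-0.31, adjusted p = 0.0263), and of the other T-cell factors Satb1, a chromatin organizer of thymocytes, fell (-0.48, adjusted p = 0.0357). Of the targets 1 rose (Il2ra, 0.68, adjusted p = 0.0294), and of 11 progenitor factors tested 1 fell (Kit, from 341 to 382 CPM in GFPlo to 141 to 198 CPM in GFPhi, adjusted p = 0.0101). Without GFPhi replicate 3, where 41.3% of all genes were called, the calls were 2 up and 5 down for relatives, 4 and 3 for partners, 5 and 1 for other T-cell factors, 9 and 2 for targets and 3 and 3 of 12 for progenitor factors, and the 7 genes just named kept their direction and passed the test (Kit -0.86, Il2ra 0.52 and Satb1 -0.55). In p21-/- against WT 0 genes of these lists were called, beside 0.11% of all genes. In Lmo2Tg;p21-/- against Lmo2Tg there were 3, with 0% to 7.14% of each list called, beside 6.94% of all genes. Rag2 (1.11, adjusted p = 0.0147) and Nfe2 (0.81, adjusted p = 0.0388) rose and Hes1 (-1.56, adjusted p = 0.0264) fell. The Lmo2Tg libraries differed widely for Hes1, at 107 and 291 CPM, against 67.7 and 67.8 CPM in Lmo2Tg;p21-/-.

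Markers of other cells moved with the same groups. The summed B-cell markers (12 genes) were 42.3 to 46.3 CPM in GFPlo and 50.7, 87.7 and 66.0 CPM in GFPhi replicates 1 to 3, where 6 of 10 tested rose (8 of 11 without GFPhi replicate 3), with a median log2 difference of 4.49 as fitted and 3.50 with genes at the floor set to their bound (3.99 as fitted without GFPhi replicate 3). Across the genotypes they were 63.1 to 68.4 CPM in WT and 30.6 to 31.9 CPM in Lmo2Tg. Natural killer and innate markers (8 genes), a lineage that uses Runx3, were at 192 to 211 CPM in WT and 102 to 135 CPM in Lmo2Tg, and at 187 to 218 and 85.1 to 98.0 CPM in p21-/- and Lmo2Tg;p21-/-, and Ncr1 was at 0 in WT and both transgenic genotypes. Gzma alone was at 198 CPM in WT and fell (111 CPM in Lmo2Tg, adjusted p = 0.000609), while Tyrobp rose from 0.970 to 4.09 CPM (adjusted p = 0.00102), so that 1 of the 4 tested rose and 1 fell, as in the comparison without p21. Markers of double-positive and mature T cells (9 genes) summed to 611 to 693 CPM in WT and 659 to 700 CPM in Lmo2Tg, and Cd8a rose from 8.63 ± 1.09 to 33.7 ± 1.11 CPM (1.96, adjusted p = 0.000443). Without p21 they summed to 629 to 652 CPM in p21-/- and 487 to 544 CPM with the transgene, and 2 of the 8 tested rose, Cd8a among them (1.43, adjusted p = 0.00684), and 2 fell, among them Arpp21 (from 578 to 439 CPM), which made up most of the sum. The double-positive and mature T markers summed to 633 to 700 CPM in GFPlo and 609 to 745 CPM in GFPhi. There 2 of the 8 tested rose and 0 fell (25%, beside 14.9% of all genes). Without GFPhi replicate 3, 4 rose and 2 fell (75%, beside 41.3%). Myeloid markers summed to at most 34.8 CPM and erythroid markers to at most 29.6 CPM in any library. Thymic stroma markers spanned 181 to 313 CPM, with Pdgfra at 0 in all 6 groups and Foxn1 at 0 in all 4 genotypes. Pecam1 made up most of that sum (148.5 ± 6.48 CPM in WT and 225.5 ± 17.1 CPM in GFPlo). The 10 DN3 markers summed to 8104 to 8387 CPM in WT and 5051 to 5619 CPM in Lmo2Tg. In that comparison 7 fell and 2 rose (90% called, beside 36.6% of all genes). Il2ra, whose product CD25 defines the sorted stage, was not called (-0.13, adjusted p = 0.247). Bcl11b and Ets2 fell and Runx3 rose in the same comparison. The part of any of these markers in the levels of the factors was not tested.

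Genes whose pattern over the 9 genotype libraries was most like that of the 4 most variable factors were taken among 8762 genes of at least 10 CPM on average, by Pearson's r of log2 CPM. For Runx3 these were Sh2b1 (r = 0.995), Lmbr1l (0.994) and Plscr1 (0.994), for Ets2 Coq6 (0.980), Ptms (0.979) and Ash2l (0.978), for Bcl11b Tnfrsf1a (0.987), Bri3bp (0.986) and Glmn (0.982), and for Myb Gbp4 (0.990), Hmha1 (0.990) and Phf1 (0.987). Such values describe libraries that share their genotypes and their depth. The group means spanned 1.18 on the log2 scale for Runx3, 0.93 for Ets2, 0.51 for Bcl11b and 0.50 for Myb, and 0.16 for Ets1, the steadiest of the 10.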

How the data were processed

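Poly(A)-selected RNA of 16 samples was described in the labels, and 15 libraries were analysed: 6 of the GFP experiment and 9 of the genotypes. The authors deposited counts as whole reads per gene, not normalized, which per the labels came from STAR 2.4.2a and featureCounts on mm10; the annotation is not given in the sources used here, and the strand setting only by the tables' names, which point to reverse-strand counting for the GFP libraries and unstranded counting for the genotypes. One table column (1) whose name matched no sample was not used, and 1 p21-/- sample, to which no column could be matched, was not analysed here. Numbers on the Lmo2Tg columns could not be tied to one sample each, so these columns entered as a group. Conditions came from sample labels and column names.

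Counts were filtered by filterByExpr (minimum count 10, minimum total 15), scaled by TMM and tested with the quasi-likelihood test of edgeR 4.0.16 (R 4.3.3), with the GFP libraries in one fit and all genotypes in another, no covariates, and Benjamini-Hochberg adjustment over all genes tested. A gene was called at an adjusted p under 0.05. DESeq2 1.42.0, limma-voom (limma 3.58.1), RLE scaling, other filters, leaving out each library and a replicate block were alternatives. The steps were tested on simulated data. Levels between genes used GENCODE M21 exon lengths (98.6% of identifiers matched). Promoter sequences were from RefSeq (GRCm38.p6), and motifs were searched on both strands in the 250 bases before each start. Figures were drawn with matplotlib 3.10.9.

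The factors and lists were chosen with earlier results of these data known. Named were all 10 factors in every comparison, from each other list called genes among the 4 with the largest change, and for the 4 most variable factors the 3 genes most alike, with Lmo2 and Cdkn1a as checks of the labels. Cbfb, Tle3, Hoxa9, Irf8, Cd8a, Gzma, Tyrobp, Arpp21 and Pecam1 were added after their values were seen. One gene that the rule names is not reported here. The groups of 2 and 3 pools limit precision, p-values measure only the spread between these pools, and floors cover counting error only.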

Additional observations from a re-analysis of the deposited data

How the results depend on the processing

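Runx3, Ets2 and Bcl11b were called in all 15 alternatives of Lmo2Tg against WT, and Runx3, Ets2 and Myb in all 16 of Lmo2Tg;p21-/- against p21-/-. Of 899 values of the factors under an alternative, 841 kept their direction and side of the threshold, 12 fell below it, 5 passed it, and 41 changed sign, none of them of a factor called in that same comparison. In GFPhi against GFPlo the number of factors called was 0 with the replicate block and at an adjusted p of 0.01, and 0 to 2 when 1 library was left out. In Lmo2Tg;p21-/- against p21-/- it was 3 to 5 with 1 library left out, the 3 without Lmo2Tg;p21-/- replicate 1. With CPM not divided by length 2 factors kept their WT rank. The cause of these changes was not tested.

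Sign changes in GFPhi against GFPlo were Runx3 at 0.000902 with no filter, Tcf7 at -0.00167 with a mean CPM of at least 1, Tcf7 at -0.00476 and Bcl11b at -0.000492 in limma-voom, Tcf7 at -0.00436 and Bcl11b at -0.000879 with the block, and Tcf7 at -0.026, Bcl11b at -0.0123 and Runx1 at -0.00588 without chromosomes 2 and 15. With 1 library left out, differences there spanned -0.0462 to 0.1 for Tcf7, -0.192 to 0.00351 for Gata3, -0.132 to 0.12 for Bcl11b, -0.0391 to 0.0794 for Runx1, -0.108 to 0.172 for Runx3 and -0.0679 to 0.171 for Gfi1. In p21-/- against WT they spanned -0.0644 to 0.155 for Lef1, -0.107 to 0.148 for Bcl11b and -0.0572 to 0.0935 for Runx3. In Lmo2Tg;p21-/- against Lmo2Tg they spanned -0.21 to 0.116 for Lef1, -0.345 to 0.00769 for Runx3, -0.0462 to 0.0654 for Ets1 and -0.27 to 0.0879 for Ets2, and against p21-/- -0.0875 to 0.239 for Lef1. The interaction spanned -0.102 to 0.0457 for Tcf7, -0.242 to 0.0836 for Lef1, -0.0318 to 0.138 for Runx1 and -0.0987 to 0.013 for Ets1.

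The GFP libraries came from 3 cohorts of mice, but that equal numbers mark a cohort is not stated in the sources used here, and the correlations of the deviations of same-numbered libraries were 0.104, -0.097 and 0.089 in the GFP experiment and between -0.293 and 0.351 over the genotypes. With the block, genes called fell from 1721 to 496 for GFPhi against GFPlo and rose from 3639 to 4964, with 5 factors still called, for Lmo2Tg;p21-/- against p21-/-. Over the alternatives the count of all genes for the interaction ranged from 0 to 520 (163 as reported), and leaving out 1 GFP library gave 273 to 4848. Where a library left out leaves 1 in its group, that library is assumed to vary like the other groups. The lowest count of a factor was 610, and groups hold 2 or 3 pools.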
